A study of Mus musculus with 2 samples.

Results

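The genes of the epidermal differentiation complex and the squamous genes that act with them were compared between 2 teratoma libraries. The set holds every protein-coding row of the deposited gene table whose symbol begins with Sprr, Lce or S100a, together with Ivl, Flg, Trp63, Dsg1a, Dsg3, Dsc3, Tgm1, Tgm3, Pkp1 and Sfn. These are 59 members of 45777 rows, 21949 of which are protein-coding. They are 14 Sprr, 21 Lce and 14 S100a genes and the 10 named genes. The first library is from a teratoma of E14 cells, a mouse ESC line with wild-type Sox2. The second is from a teratoma of E14-Sox2TA/WT cells, E14 cells in which CRISPR-Cas9 changed threonine 258 of Sox2 to alanine on 1 allele, taken from colonies grown from single cells. Both cell types were inoculated subcutaneously into nude mice of the BALB/c-nu strain, which lack T cells, and teratomas were harvested after 14 days. In each group 3 mice were inoculated, and it is not stated whether a library holds RNA of 1 teratoma or of several.

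With 1 library per group there is no replicate check, and no p-value was computed for any difference. The intervals given below are 95% Clopper-Pearson intervals, which cover counting error only and compare these libraries, not the conditions. Below, the libraries are called E14 and the mutant, and paired values stand in this order. E14 had 50529171 reads on genes and the mutant 49030281. A ratio of scaled reads is the ratio, mutant over E14, of read counts divided by these totals, while TPM is also scaled by transcript length. Sox2 had 14585 reads in E14 and 8623 in the mutant, with a TPM of 246 and 130, and its alleles are not separated in the table. The labels name the tissue as teratoma, while their protocol text speaks of RNA from an ESC line. Host and graft are both mouse, so reads from skin or other tissue of the host cannot be told apart from reads of the graft. In bulk tissue, fewer cells of a type and less RNA per cell cannot be told apart either.

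Stratified squamous epithelium renews from a basal layer and matures as cells move to the surface. There the plasma membrane is replaced by the cornified envelope, a protein shell in which small proline-rich (SPRR) and late cornified envelope (LCE) proteins, involucrin and other precursors are joined by transglutaminases. The genes of many of these precursors lie side by side in the epidermal differentiation complex, flanked on both sides by S100 genes, which encode small calcium-binding proteins. Desmosomes, built from desmogleins, desmocollins and plakophilins, hold the cells to each other, and the transcription factor p63, encoded by Trp63, is needed to form and keep such epithelia.

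The largest ratios lay in the Sprr genes, and the sequences before 5 of them are shown because these genes differ in reads though they lie side by side. Sprr1a, Sprr3 and Sprr2a1 had many reads in the mutant, Sprr1b had few and Sprr2d had none. RefSeq promoters on GRCm38.p6, the build to which mm10 corresponds, were found for 50 of the 59 members. Each sequence below is the 250 bases before the annotated start, 5′ to 3′ on the strand of the gene. Capitals mark TGANTCA, the site of AP-1, the FOS and JUN factor that is known to act on many SPRR genes, and TATAAA, the TATA box. Sprr1a (chr3:92485882-92486131, minus strand), Sprr1b (chr3:92438780-92439029, minus strand) and Sprr3 (chr3:92458721-92458970, minus strand) are neighbours. Sprr2a1 (chr3:92215585-92215834, plus strand) and Sprr2d (chr3:92338890-92339139, plus strand) lie in the Sprr2 row beside them.
Sprr1a: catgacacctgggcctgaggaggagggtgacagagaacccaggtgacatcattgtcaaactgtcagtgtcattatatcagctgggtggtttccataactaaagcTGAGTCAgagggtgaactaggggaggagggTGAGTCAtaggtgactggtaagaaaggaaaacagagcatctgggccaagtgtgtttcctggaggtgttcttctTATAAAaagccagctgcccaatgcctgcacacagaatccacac
Sprr3: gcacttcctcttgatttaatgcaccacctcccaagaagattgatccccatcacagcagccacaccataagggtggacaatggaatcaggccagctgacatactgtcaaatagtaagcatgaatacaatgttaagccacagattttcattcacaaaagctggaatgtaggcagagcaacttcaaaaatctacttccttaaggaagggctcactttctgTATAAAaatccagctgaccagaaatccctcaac
Sprr1b: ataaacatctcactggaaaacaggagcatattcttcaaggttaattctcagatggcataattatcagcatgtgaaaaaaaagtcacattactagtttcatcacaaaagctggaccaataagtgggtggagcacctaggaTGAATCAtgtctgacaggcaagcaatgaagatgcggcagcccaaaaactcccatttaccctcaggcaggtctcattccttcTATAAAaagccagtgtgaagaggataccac
Sprr2a1: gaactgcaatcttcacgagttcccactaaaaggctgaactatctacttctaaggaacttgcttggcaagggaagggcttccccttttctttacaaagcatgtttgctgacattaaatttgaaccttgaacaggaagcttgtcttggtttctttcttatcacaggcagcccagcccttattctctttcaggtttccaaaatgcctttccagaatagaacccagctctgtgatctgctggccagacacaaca
Sprr2d: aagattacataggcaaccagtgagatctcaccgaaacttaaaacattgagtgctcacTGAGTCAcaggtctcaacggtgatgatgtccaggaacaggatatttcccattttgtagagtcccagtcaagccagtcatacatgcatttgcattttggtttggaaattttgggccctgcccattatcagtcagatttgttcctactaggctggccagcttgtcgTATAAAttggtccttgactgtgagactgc

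These motifs were searched on both strands, together with CATTGT, a core that SOX factors bind, and matches of different motifs did not overlap in any member. Matches were counted per gene, in the 250 bases of any of its RefSeq promoters. Over 27025 genes, 7.82% held TGANTCA, 14.3% TATAAA and 12.2% CATTGT. Of the 14 Sprr genes, 9 held TGANTCA, 10 held TATAAA and 6 held CATTGT. Of the 20 Lce genes with a promoter, 0 held TGANTCA, 4 held TATAAA and 1 held CATTGT. The 11 S100a genes with a promoter held them in 2, 3 and 1 cases. Sprr1a had TGANTCA starting at -146 and -116 and TATAAA at -43, counted from the annotated start. Sprr3 had no TGANTCA in this window, TATAAA at -33 and CATTGT at -175 and -127. The promoters of Sprr2a1 and Sprr2a2 were identical at 250 of 250 bases and held none of the 3 motifs. That of Sprr2a3 matched Sprr2a1 at only 26.4% of positions, compared without gaps. The 5 Sprr2 genes with no read in either library, Sprr2d, Sprr2e, Sprr2f, Sprr2h and Sprr2i, all held TGANTCA between -198 and -193 and TATAAA at -29. In the Sprr2 row, Sprr2b and Sprr2k, with 3 and 4 reads in the mutant, also held TGANTCA and TATAAA. Sprr2a1, Sprr2a2 and Sprr2a3, with most reads of this row, held neither, while Sprr1a, with 973 reads in the mutant, held both. Over all Sprr genes, those with and without reads thus did not separate by these letters before the annotated starts. Whether these starts were the ones used in the teratomas was not tested, and a match is a run of letters and not a measured binding site.

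**Figure D1:**
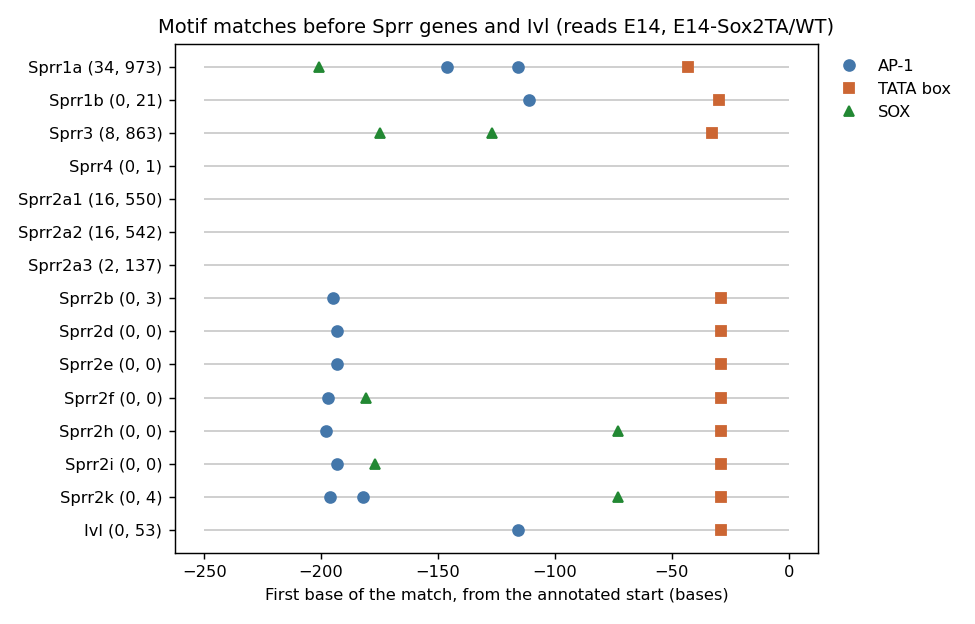
Matches of 3 motifs in the 250 bases before the annotated start of each Sprr gene and of Ivl, for which 1 of its annotated starts was used. The x axis is the position of the first base of a match in bases from the start, and the numbers beside each name are the reads in E14 and the mutant. The 5 Sprr2 genes with 0 reads in both libraries carry an AP-1 and a TATA box match, while Sprr2a1, Sprr2a2 and Sprr2a3 carry no match.

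Of the 59 members, 38 had at least 1 read in either library, and all 38 had more scaled reads in the mutant. Over all protein-coding rows, 10798 of the 18788 with a read did. The other 21 members had 0 reads in both libraries, and 15 had 0 only in E14, where a count of 0 allows up to 3 reads. Over all 21949 protein-coding rows, 3161 had 0 in both libraries and 1555 had 0 only in E14. In all, 4716 of these rows had 0 reads in E14 and 3374 in the mutant. Folds given below as at least a value set a 0 in E14 to 3 reads. They take the mutant count as exact and so lie above the lower end of the counting interval, for Ivl 18.2 against 14.3. Summed over all members, TPM was 766 in E14 and 1731 in the mutant, 2.26 times as much.

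By a rule taken from the study's methods, a fold change above 2 among genes that reach a TPM of 10 in either library, with the fold taken here as the ratio of TPM, 8 of the 12 members at that level were higher in the mutant and 0 were lower. Over all 11578 genes at that level, 10.8% were higher and 18.7% were lower. With the ratio of FPKM these shares were 13.7% and 14.3%, and 9 members were higher and 0 lower. The 8 were Sprr1a, Sprr3, S100a4, S100a9, S100a10, S100a11, S100a14 and Sfn. Sprr1a, Sprr3 and S100a9 reached a TPM of 10 only in the mutant and so could only be higher. When both libraries had to reach a TPM of 10, 5 of 9 members were higher and 0 lower, against 5.34% higher and 12.5% lower among 8963 genes. A rule on reads, a ratio of scaled reads above 2 with at least 20 reads in all, was added after the data were seen. It gave 23 of 27 members as higher and 0 as lower, against 25.2% and 14.7% of 21567 genes. Sprr1b, Ivl, Flg and Dsg1a, with 0 reads in E14, passed this filter only through the mutant and could only be higher. Sprr3, Sprr2a1, Sprr2a2 and Sprr2a3 also had fewer than 20 reads in E14.

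**Figure D2:**
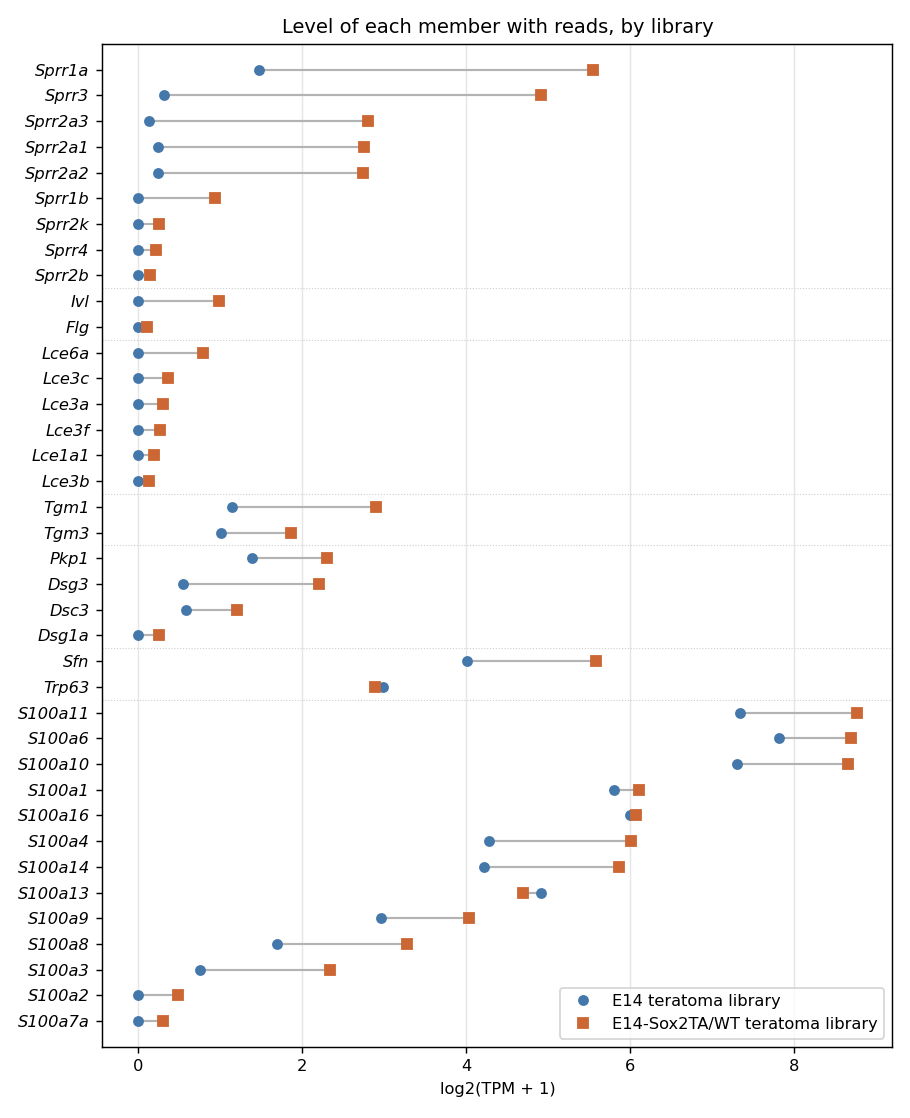
Level of the 38 members with at least 1 read, as log2 of TPM with 1 added, in E14 (circles) and in the mutant (squares), grouped by role and joined by a line for each gene. S100a11, S100a6 and S100a10 are the highest in both libraries, Sprr1a and Sprr3 have the longest lines, and for Trp63 and S100a13 the square lies to the left of the circle.

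The SPRR precursors differed most. All 14 Sprr genes together had 76 reads in E14 and 3094 in the mutant, a ratio of scaled reads of 42.0 (33.4 to 53.4). Their share of the members' TPM was 0.324% in E14 and 5.42% in the mutant. Sprr1a (chr3:92483954-92485881) had 34 reads in E14 and 973 in the mutant. Its TPM was 1.78 and 45.8, and the ratio of scaled reads was 29.5 (21.0 to 42.8). Sprr3 (chr3:92456502-92458720), which is abundant in the lining of the oesophagus and oral cavity, had 8 and 863 reads. Its TPM was 0.242 and 29.1, and the ratio of scaled reads was 111 (56.2 to 258). Both genes were below a TPM of 2 in E14 and among the 12 members at a TPM of at least 10 in the mutant. Neither shared a stretch of 50 nt with another gene in the longest annotated transcript.

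Sprr2a1, Sprr2a2 and Sprr2a3 together had 34 reads in E14 and 1229 in the mutant, a ratio of 37.3 (26.5 to 54.0) in scaled reads and a summed TPM of 0.456 and 17.4. These 3 copies cannot be separated with confidence. Of the stretches of 50 nt in the longest transcript, 96.3% for Sprr2a1, 96.5% for Sprr2a2 and 61.1% for Sprr2a3 also occurred in another gene. The counts of Sprr2a1 (16 and 550) and Sprr2a2 (16 and 542) were nearly equal in each library, and Sprr2a3 had 2 and 137 reads. The transcript length implied by reads and FPKM in E14 was 4115 nt for Sprr2a1 and Sprr2a2 but 946 nt for Sprr2a3. The TPM values of these copies thus rest on unlike lengths. The other 7 Sprr2 genes had 0 reads in E14 and 7 in the mutant, 3 in Sprr2b and 4 in Sprr2k. Sprr1b had 0 and 21 reads, at least 7.21-fold higher in scaled reads, at a TPM of 0.920 in the mutant. Sprr4 had 0 and 1 read. Reads in the Sprr row thus came mainly from Sprr1a, Sprr3 and the Sprr2a copies.

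Ivl, Flg and the Lce genes, the other envelope members, were near 0 in both libraries. Ivl (involucrin, chr3:92570899-92573790), a substrate of transglutaminases at the start of envelope assembly, had 0 reads in E14 and 53 in the mutant, at least 18.2-fold higher, with a TPM of 0.976. Flg (filaggrin, chr3:93273546-93293689), which packs keratin filaments in the granular layer, had 0 and 30 reads, at least 10.3-fold higher, with a TPM of 0.0813. Flg overlaps the ribosomal pseudogene Rplp0-ps1. The 21 Lce genes together had 0 reads in E14 and 36 in the mutant, at least 12.4-fold higher as a family, and 15 of them had 0 in both. Of these reads 18 were on Lce6a, which overlaps the noncoding gene Gm35639. The 6 Lce3 genes had 15 reads and the 14 Lce1 genes 3. Each of Ivl, Flg and the whole Lce family thus had fewer reads in the mutant than Sprr2a3 alone.

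Members that crosslink the envelope were higher at lower levels. Tgm1 (transglutaminase 1, chr14:55700009-55713921), the membrane-bound crosslinking enzyme, had 84 reads in E14 and 482 in the mutant. Its TPM was 1.21 and 6.49, and the ratio of scaled reads was 5.91 (4.68 to 7.55). Tgm3 (chr2:129987794-130050399), the soluble enzyme of the late steps, had 78 and 296 reads, a TPM of 1.02 and 2.65, and a ratio of scaled reads of 3.91 (3.04 to 5.09). The TPM ratio of Tgm3 was 2.60, lower than its ratio of reads, and the transcript length implied by its reads and FPKM was 3523 nt in E14 and 4619 nt in the mutant. Tgm3 overlaps the noncoding gene Gm52561, and no source states if reads were counted by strand.

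The 4 desmosomal members had 294 reads in E14 and 1119 in the mutant, a ratio of scaled reads of 3.92 (3.45 to 4.48). Dsg3, the desmoglein of the basal and lower layers of epidermis and of mucosal epithelium, had 47 and 404 reads. Its TPM was 0.464 and 3.63, and the ratio of scaled reads was 8.86 (6.54 to 12.3). Its partner Dsc3 (desmocollin 3) had 65 and 190 reads, a TPM of 0.495 and 1.30, and a ratio of scaled reads of 3.01 (2.26 to 4.06). Dsg1a, the desmoglein of the upper layers of epidermis, had 0 and 30 reads, at least 10.3-fold higher, at a TPM of 0.196, and 35.0% of its stretches of 50 nt occurred in another gene, mostly Dsg1b. Pkp1 (plakophilin 1, chr1:135871394-135919207), which anchors desmosomes to keratin in suprabasal cells, had 182 and 495 reads, a TPM of 1.61 and 3.93, and a ratio of scaled reads of 2.80 (2.36 to 3.34). All 4 were below a TPM of 5 in both libraries.

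The regulators split. Sfn (14-3-3 sigma, chr4:133600556-133602168), an adaptor protein of epithelial cells that promotes keratinocyte maturation, had 585 reads in E14 and 2046 in the mutant. Its TPM was 15.1 and 47.2, and the ratio of scaled reads was 3.60 (3.29 to 3.96). Trp63 (chr16:25683763-25892088) had 738 and 791 reads and a TPM of 6.96 and 6.43. Its ratio was 0.924 on TPM and 1.10 (0.998 to 1.22) on scaled reads, so its direction turned with the scaling and the counting interval included 1. The isoforms of Trp63 are not separated in the table. Of the 8 members outside chromosome 3, Trp63 alone did not pass a ratio of 2 in scaled reads.

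**Figure D3:**
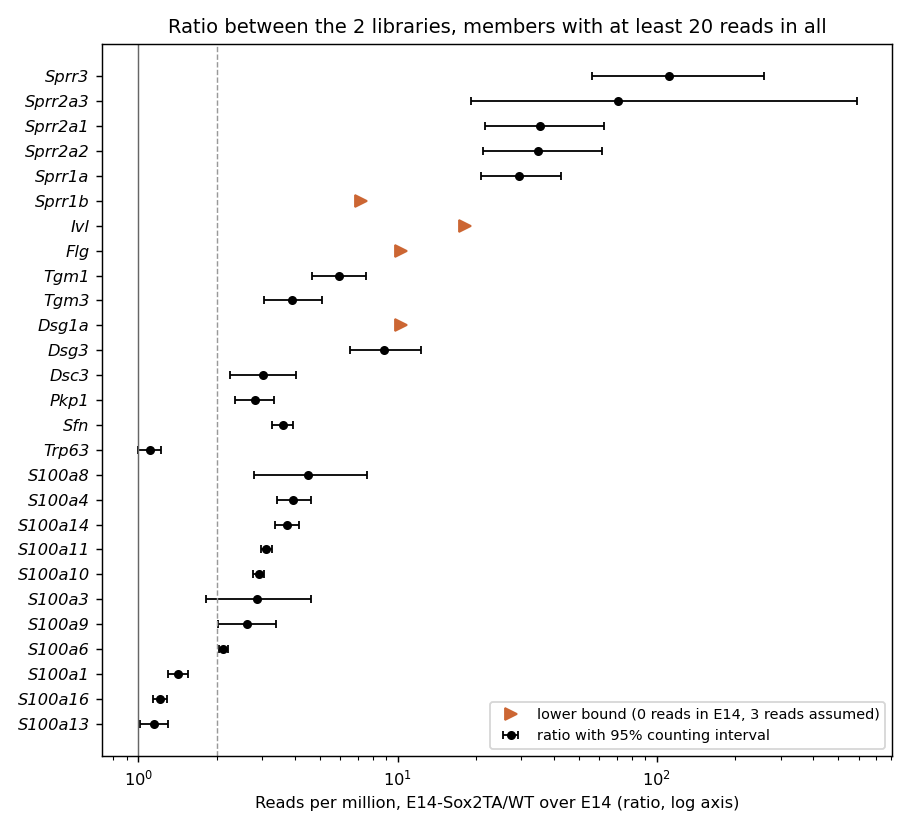
Ratio of scaled reads, E14-Sox2TA/WT over E14, for the 27 members with at least 20 reads in all, on a log axis. Points are ratios with 95% counting intervals, and the solid and dashed lines stand at ratios of 1 and 2. Triangles are lower bounds for genes with 0 reads in E14, set to 3 reads, without the counting error of the mutant. The 5 Sprr genes with reads in both libraries lie farthest to the right, between 29.5 and 111, and the interval of Trp63 crosses 1.

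The S100a genes held most of the members' RNA, with 96.2% of their summed TPM in E14 and 90.3% in the mutant. Together they had 12215 and 27688 reads, a ratio of scaled reads of 2.34 (2.29 to 2.39). The 3 most abundant were S100a6, S100a10 and S100a11, which made up 71.0% of the members' TPM in E14 and 72.4% in the mutant. S100a6 (calcyclin) had 3885 and 8017 reads, a TPM of 225 and 415, and a ratio of scaled reads of 2.13 (2.05 to 2.21). Its TPM ratio was 1.85 and did not pass 2. S100a10, which binds annexin A2 at the membrane, had 2517 and 7099 reads, a TPM of 158 and 403, and a ratio of scaled reads of 2.91 (2.78 to 3.04). S100a11, a transglutaminase substrate of keratinocytes, had 1961 and 5929 reads, a TPM of 161 and 434, and a ratio of scaled reads of 3.12 (2.96 to 3.28). S100a11 shared 41.1% of its stretches of 50 nt with Gm12854.

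S100a14, found mainly in epithelia, and S100a4, abundant in mesenchymal and immune cells, had the largest ratios among the S100a genes with a TPM above 10 in both libraries. S100a14 had 460 reads in E14 and 1672 in the mutant, a TPM of 17.6 and 57.6, and a ratio of scaled reads of 3.75 (3.38 to 4.16). S100a4 had 224 and 861 reads, a TPM of 18.4 and 63.5, and a ratio of 3.96 (3.42 to 4.61), and 56.3% of its stretches of 50 nt also occurred in Gm42674. S100a8 and S100a9, the subunits of calprotectin, are abundant in neutrophils and are also made by stressed keratinocytes. S100a8 had 21 and 92 reads, a TPM of 2.23 and 8.72 and a ratio of 4.51 (2.79 to 7.64). S100a9 had 86 and 218 reads, a TPM of 6.81 and 15.4 and a ratio of 2.61 (2.03 to 3.39).

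Members S100a1, S100a13 and S100a16 differed little. S100a1, best known from striated muscle, had 817 reads in E14 and 1127 in the mutant, a TPM of 55.2 and 68.2, and a ratio of scaled reads of 1.42 (1.30 to 1.56). S100a16 had 1714 and 2016 reads, a TPM of 63.3 and 66.4, and a ratio of 1.21 (1.14 to 1.29). S100a13 had 503 and 560 reads and a TPM of 29.1 and 25.0, with a ratio of 0.860 on TPM and 1.15 (1.01 to 1.30) on scaled reads. S100a1 and S100a13 overlap by 98 bases. S100a3, known from hair cuticle, had 27 and 75 reads and a TPM of 0.689 and 4.04. Its ratio was 5.87 on TPM but 2.86 (1.82 to 4.62) on reads, with an implied transcript length of 1807 nt in E14 and 768 nt in the mutant, and S100a2 lies within it. S100a7a had 0 and 18 reads, at least 6.18-fold higher, S100a2 had 0 and 4, and S100a5 had 0 in both.

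The S100a genes are made by many cell types, and markers of several of these also had more scaled reads in the mutant. Over all protein-coding genes with a read, 10798 of 18788 did. All 7 of 7 fibroblast markers had more scaled reads in the mutant, and their summed TPM was 688 in E14 and 1640 in the mutant. All 10 simple epithelium markers did so too, with a summed TPM of 600 and 1556, and so did all 10 macrophage markers, with 980 and 1669. Of the 12 neutrophil markers, 12 had more scaled reads in the mutant and 6 had 0 reads in E14 (Ngp, Camp, Ly6g, Elane, Retnlg and Lcn2). Their summed TPM was 4.44 and 86.6. Most of this was Ltf (lactoferrin), also a product of glandular epithelium, with a TPM of 0.853 and 62.9, a gene singled out after its values were seen. Of the markers at a TPM of 10 in either library, 4 of 7 fibroblast, 5 of 10 simple epithelium, 3 of 9 macrophage and 2 of 2 neutrophil ones were higher. The share over all genes was 10.8%. The 2 neutrophil markers and 2 of the 3 macrophage markers reached that level only in the mutant. Of 10 skeletal muscle markers, 3 had more scaled reads in the mutant and 7 fewer, with a summed TPM of 308 and 180. The part of these cell types in the S100a values was not tested.

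On the log2 scale with 1 added to each TPM, the median difference over the 23 members that reached a TPM of 1 in either library was 1.58, with 21 higher and 2 lower. The order-statistic interval of this median ran from 0.88 to 1.74, while single genes ran from -0.21 to 4.60. The interval treats the genes as independent, though Sprr2a1, Sprr2a2 and Sprr2a3 cannot be separated, and it does not compare the conditions. The median over the 15694 protein-coding genes that passed the same filter was -0.10, and relative to it the members' median was 1.68. The cornified envelope members had a median of 2.67 over 5 genes, the S100a members 1.35 over 11 and the adhesion, crosslinking and regulator members 0.92 over 7. Of the 37 cornified envelope members, 32 did not reach this TPM, so the first of these medians describes the Sprr genes only.

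Of the 59 members, 51 lie on chromosome 3 of GRCm38 between 90511034 and 93564645, an interval of 3054 kb. The proximal block, from S100a1 to S100a9, holds 12 S100a genes, with 7737 reads in E14 and 14660 in the mutant. The Sprr row (92215835 to 92500493) and the Lce row (92604821 to 93019061) follow. The distal end holds S100a11 and S100a10 (93520496 to 93564645), with 4478 and 13028 reads. Between the outermost members lie 19 other protein-coding genes, and none reached a TPM of 10. Of these, 8 had 0 reads in both libraries, 10 had more scaled reads in the mutant and 1 had fewer. The following neighbours were singled out after their values were seen. The gene with fewer reads was Lor (loricrin), the main protein of the epidermal envelope, with 225 and 63 reads and a TPM of 5.23 and 1.31. Rptn (repetin), which is sparse in epidermis and abundant in tongue and forestomach, had 0 and 248 reads, at least 85.2-fold higher. Crnn (cornulin), known from oesophageal epithelium, had 0 and 41 reads, at least 14.1-fold higher, Crct1 had 10 and 85, and Hrnr had 0 and 20. Along the interval, Lor alone thus had fewer scaled reads in the mutant, and the size of the difference varied from gene to gene. On TPM, S100a13 (29.1 and 25.0) and Tchh (0.871 and 0.861) were slightly lower in the mutant as well.

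**Figure D4:**
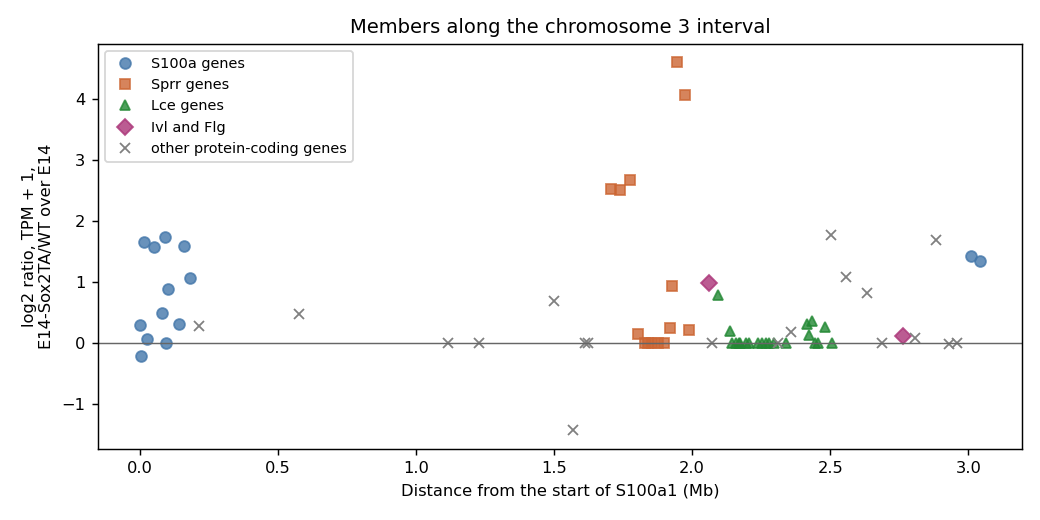
Difference between the libraries along the chromosome 3 interval, with the distance from the start of S100a1 in Mb on the x axis and the log2 ratio of TPM with 1 added, E14-Sox2TA/WT over E14, on the y axis. S100a genes sit at both ends between -0.21 and 1.74, Sprr1a and Sprr3 stand above 4, 15 of the 21 Lce genes lie at 0, and the cross below -1 is Lor.

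Other genes of cornification, adhesion and keratinization were taken from lists assembled by hand. The counts below are to be read against the shares given above, 10.8% higher and 18.7% lower over all genes at a TPM of 10 in either library, and 5.34% and 12.5% over genes at that level in both. Genes at that level only in the mutant could not be called lower. Of 34 other envelope and cornification genes, 8 reached a TPM of 10 in either library, and of these 6 were higher by the TPM rule and 0 lower, with a median log2 ratio of 1.69 over 17 genes. However, 7 of the 8, the 6 called ones included, reached that level only in the mutant, and the only gene at that level in both, Cstb, was not called. Cnfn (cornifelin), an envelope component, had 5 reads in E14 and 464 in the mutant, with a TPM of 0.230 and 26.8. Krtdap, a secreted protein of maturing keratinocytes, had 26 and 821 reads and a TPM of 2.32 and 67.8. Cstb (cystatin B), a protease inhibitor found in most tissues, had a TPM of 137 and 242. Cnfn and Krtdap, like Sprr1a and Sprr3, thus had most of their reads in the mutant. Of the 28 listed genes with a read, 26 had more scaled reads in the mutant and 2 fewer. Over all protein-coding genes with a read, 10798 of 18788 had more. Asprv1, Spink5 and Casp14, singled out after their values were seen, had 178 and 883, 0 and 254, and 2 and 115 reads.

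Of 16 keratins, 8 reached that level, 7 were higher and 0 were lower, with a median log2 ratio of 1.40 over 13 genes. At that level in both libraries were 6, of which 5 were higher and 0 lower. Krt13, of the suprabasal cells of lining mucosa, had 593 reads in E14 and 8759 in the mutant, and its TPM was 14.9 and 197. Krt6a, of mucosa and activated epidermis, had 569 and 5856 reads and a TPM of 10.5 and 96.5. Krt15, of basal cells, had a TPM of 151 and 178. The next 5 keratins were singled out after their values were seen. Krt4, the partner of Krt13, had a TPM of 37.9 and 142, and Krt5 and Krt14, the pair of basal cells, had 25.1 and 127 and 8.09 and 58.9. Krt1 and Krt10, the suprabasal pair of epidermis, had a TPM of 1.63 and 1.32 and of 4.13 and 6.23. Whether genes of mucosa and of epidermis differed as groups was not tested.

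Of 12 other desmosome genes, 7 reached that level, 4 were higher and 0 were lower, with a median log2 ratio of 1.02 over 8 genes. Of these, 3 reached that level in both libraries, with 1 higher (Perp) and 0 lower, and the other 3 called genes reached it only in the mutant. Pkp2, also of simple epithelium and heart, had a TPM of 5.96 in E14 and 19.5 in the mutant, Dsc2 5.15 and 13.3, and Perp, a p63 target in desmosomes, 32.6 and 68.1. Pkp4 had a TPM of 53.2 and 43.6. Among 13 basal and hemidesmosome genes, 8 reached it in both libraries, 0 were higher and 1 was lower, with a median log2 ratio of 0.0065. The lower one was Dst (dystonin), which has epithelial, neural and muscle forms, with a TPM of 34.1 and 14.7. Fgfr2 had 32.0 and 22.1, Cd151 94.0 and 89.1, and Bcam 50.7 and 48.2. In this list the other 7 genes at that level were not called in either direction. Of the basal keratins named above, Krt5 and Krt14 were higher and Krt15 was not called.

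Of 26 regulators of squamous cells, 17 reached that level, 5 were higher and 3 were lower, with a median log2 ratio of 0.55. At that level in both libraries were 7, of which 1 was higher (Elf3) and 1 lower (Notch1, singled out after its values were seen). The other 4 higher genes reached it only in the mutant and the other 2 lower genes only in E14. Tfap2c (AP-2 gamma), a factor of surface ectoderm and trophoblast, had a TPM of 2.26 in E14 and 19.7 in the mutant. Sox15, a SOX factor expressed in oesophageal and other stratified epithelia, had 1.86 and 12.6. Elf3, an epithelial ETS factor, had 17.4 and 46.7, and Hopx 45.4 and 64.3.

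The label of the set was set beside 12 markers of stratified squamous epithelium, all of which had reads in both libraries. All 12 also belong to the envelope, keratin or desmosome lists above. Their counts thus repeat values already given and are no separate check. Of the 12 markers, 9 reached a TPM of 10 in either library and all 9 were higher by the TPM rule, against 10.8% over all genes. Of the 9, 5 reached that level only in the mutant and could not be called lower, and the 4 at that level in both were higher, against 5.34%. The 12 had a summed TPM of 143 in E14 and 755 in the mutant. Among the 9, Sbsn, singled out after its values were seen, had a TPM of 4.79 and 21.0 but 972 and 932 reads, so its call did not hold on reads. The other 3, Krt1, Krt10 and Lor, were below a TPM of 10 in both libraries. Since teratomas grew beneath host skin, markers of its other parts are given as well. Over all protein-coding genes with a read, 10798 of 18788 had more scaled reads in the mutant. For the 9 hair follicle genes found, 7 had more and 2 fewer, with a summed TPM of 5.15 and 5.79. Of the 9, 4 had 0 reads in E14 only (Krt25, Krt27, Krt71 and Krt33a), with between 4 and 26 reads in the mutant. Skeletal muscle markers summed to 308 and 180 in 10 genes. Adipocyte markers summed to 37.3 and 127 in 8 genes, and all 8 had more scaled reads in the mutant. Of these, Adipoq, Lep, Cfd and Retn had 0 reads in E14 and between 17 and 227 in the mutant. Melanocyte markers summed to 1.64 and 6.67 in 4 genes, 3 with more scaled reads in the mutant and 1 with fewer. Of these, Dct and Mlana had 0 reads in E14 and 6 and 87 in the mutant. The part of host tissue in the members' values was not tested.

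**Figure D5:**
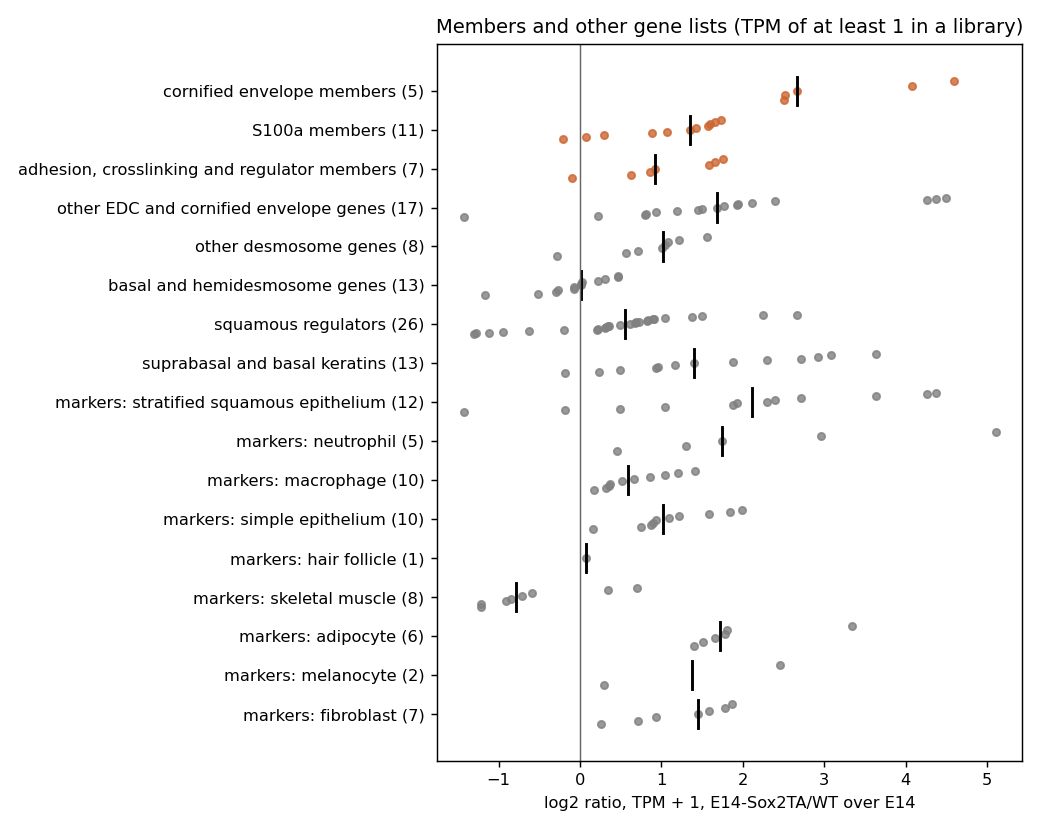
Log2 ratio of TPM with 1 added, E14-Sox2TA/WT over E14, for each gene that reached a TPM of 1 in either library, by list. Points are genes, black bars are medians, and the number of genes is in brackets. The cornified envelope members have a median of 2.67, the basal and hemidesmosome genes lie around 0, and the skeletal muscle markers lie mostly below it.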

How the data were processed

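RNA-seq was analysed for 1 E14 and 1 E14-Sox2TA/WT teratoma library. The authors deposited a table on mm10 with whole-number read counts per gene, without normalization, and with FPKM and TPM, which the authors scaled by transcript length and library size. The submitters' processing notes list bcl2fastq 2.20.0, Trimmomatic, HISAT2 2.1.0 and StringTie 2.1.3b without their roles, and both mm10 and hg19. Whether counting used strand, and how reads matching several genes were counted, is not given in the sources used here. All 59 members matched RefSeq identifiers of GRCm38.p6, as did 45679 of the 45777 rows.

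Ratios of TPM and of reads scaled by library total were computed for every row, and a rule taken from the study's methods was applied to the whole table: a fold above 2, computed here as the ratio of TPM since the methods do not name the unit, in genes reaching a TPM of 10 in either library. A count of 0 was set to 3 reads for lower bounds, which leave out the counting error of the mutant. No test was run, since each group has 1 library. Members and lists were chosen with earlier results of these data known. Described with reads and TPM were members with a TPM of at least 10 in a library or past 2-fold with a counting interval excluding 1. In each other list, the 2 genes of highest TPM and the 2 of largest change were named. Transcripts of GENCODE M21 were compared by identical stretches of 50 nt.

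Alternatives covered scaling (FPKM, library total, edgeR's TMM factors, median-of-ratios size factors), filter, fold, pseudocount, counting error, shared reads and calprotectin genes. The scripts were tested on simulated data. The tools were edgeR 4.0.16 under R 4.3.3, and scipy 1.17.1, pandas 2.3.3 and numpy 2.4.6 under Python 3.11.15.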

Additional observations from a re-analysis of the deposited data

How the results depend on the processing

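The number of members called higher was 8 as reported. It was 18 of 23 with a TPM of at least 1 (19.3% over all genes), 33 of 59 with no filter (20%) and 5 of 12 with a fold above 3 (5.73%). The 33 include all 15 members with 0 reads in E14 only, which could only be higher. Among alternatives chosen after seeing the data, it was 23 by the rule on reads and 5 where both libraries had to reach a TPM of 10. No member was called lower under any alternative run. The median log2 ratio of all members was 0.25 with no filter. That of the cornified envelope members was 4.61 with 0.1 added, 1.92 on FPKM and 0 with no filter, where most of these genes have no reads. It was 4.34 over the 2 genes left with a TPM of at least 10 or without Sprr2 and Lce genes. For the adhesion, crosslinking and regulator members, the value with a TPM of at least 10 was 1.58, that of Sfn, the only gene left. Without members overlapping another gene, their median was 1.58 over 5 genes. In all, 62 of 71 alternative values were within 1.5 times the reported count or within the order-statistic interval of the reported median. This interval is wide over 5 to 7 genes. Some of the 71 could not move. Leaving out Sprr2 and Lce genes, for example, removed no gene from the calls or from the S100a median. Only medians, not counts, could be scored as reversed, and no median was. Of 23 single members, 21 had ratios above 1 under all scalings run. S100a13 reversed, to 1.15 by library total and 1.05 by TMM or median-of-ratios factors, and Trp63, at 0.924 on TPM, was above 1 on the other 4 scalings, at 1.06 on FPKM, 1.10 by library total and 1.01 by TMM or median-of-ratios factors. The median of all protein-coding genes was -0.10 on TPM, 0.072 on FPKM and 0.082 by library total. No paired analysis was possible because each genotype has 1 library, and leaving out a library was not possible for the same reason. Depth limits the Lce genes, Flg, Ivl and Dsg1a, whose E14 counts are all 0.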
